A study of Mus musculus with 12 samples.

Results

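DN1-only sites are stretches of chromatin that were called open by DNase-seq in both libraries of DN1 cells, the earliest T cell precursors in the series, and in none of the other 10 libraries. Peaks of all 12 lists on chromosomes 1 to 19 and X were merged into consensus DNase I hypersensitive sites (DHSs) wherever they overlapped by at least 1 bp, and the DN1-only sites were chosen by their pattern of presence. The pattern held for 3014 of 170207 consensus DHSs (1.77%), and since it defines the set, that share was not tested. Of the 60183 DHSs open in both DN1 libraries, the other 57169 had a peak in at least 1 further library.

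DNase-seq cuts accessible DNA in nuclei with DNase I and sequences the fragments, so that open regulatory DNA appears as a peak. All cells came from C57BL/6J mice. LSK cells (lineage-negative SCA1+ KIT+ stem and progenitor cells, 3 libraries) were sorted fresh from marrow, and the other groups were grown from LSK cells with SCF, FLT3L, IL-6 and IL-11. DN1 cells (KIT++ CD44+ CD25-, 2 libraries) came from flasks coated with the Notch ligand Delta1 at high density, without IL-7. DN2a cells (KIT++ CD44+ CD25+, 2 libraries) and DN2b cells (KIT+ CD44lo CD25+, 2 libraries) came from Delta1 cultures with added IL-7, and the IgG group (3 libraries) from control cultures on immunoglobulin with no ligand. The methods state that DN stages were harvested in sequence. Stage, added cytokine and time of harvest thus changed together between DN1 and DN2, and their parts cannot be told apart. The sources give no age or sex, and they do not say which DN libraries came from the same LSK isolate.

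During T cell development, marrow progenitors that meet Notch ligand pass through DN1 and DN2 stages before they commit. Early on, such cells still carry regulators of stem cells and of myeloid fates, among them PU.1, an ETS family factor of myeloid and early lymphoid cells, which is later shut off, while the Notch-induced T cell factors TCF1 and GATA3 rise. Transiently open sites are distal or promoter elements that are accessible at 1 stage and not before or after it.

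Library lists differed in length, and no read depth is known. DN1 replicate 1 had 96436 peaks and DN1 replicate 2 had 69391, while the other lists ran from 32952 (IgG replicate 2) to 111582 (DN2b replicate 2), so absence from a list means only that no peak was called. The promoters of Kit and Cd44, which encode surface proteins of the DN1 gate, had a peak in all 12 libraries, at percentiles 90.5 and 84.2 (Kit) and 91.1 and 81.3 (Cd44) of the peak scores in DN1 replicates 1 and 2. The promoter of Il2ra, which encodes CD25, had a peak in the 4 DN2 libraries and in neither DN1 library. In IgG replicate 2 the best Kit promoter peak stood at percentile 14.2, against 62.8 and 69.8 in the other IgG libraries.

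A few members are printed here because they show what a DN1-only site looks like in sequence, taken from the plus strand of GRCm38, the assembly behind mm10, with 1-based coordinates. Capitals mark the letters of a motif searched for below. The first 4 are among the 10 members with the highest scores, and the Cebpa member leads its gene list. The last 3, near Mycn, Gata3 and Slamf1, were picked after their matches were seen, to show the PU.1 letters near genes of progenitors and T cells.
Stx7 member, chr10:24142837-24143006, GATA letters in capitals: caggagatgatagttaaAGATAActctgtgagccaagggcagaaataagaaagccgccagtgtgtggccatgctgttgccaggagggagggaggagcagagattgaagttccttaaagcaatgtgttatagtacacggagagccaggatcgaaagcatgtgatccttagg
Sox4 member, chr13:28945737-28945906, RUNX letters in capitals: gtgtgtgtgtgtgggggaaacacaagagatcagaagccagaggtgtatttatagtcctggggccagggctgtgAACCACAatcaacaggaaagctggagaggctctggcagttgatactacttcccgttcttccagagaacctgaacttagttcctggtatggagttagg
Prokr2 member, chr2:132337317-132337466, RUNX, RBPJ and E-box letters in capitals, in that order: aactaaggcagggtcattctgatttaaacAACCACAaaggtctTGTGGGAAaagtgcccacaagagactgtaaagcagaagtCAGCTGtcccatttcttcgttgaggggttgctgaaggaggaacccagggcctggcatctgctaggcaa
Elovl5 member, chr9:77923937-77924106, PU.1 and then IRF letters in capitals: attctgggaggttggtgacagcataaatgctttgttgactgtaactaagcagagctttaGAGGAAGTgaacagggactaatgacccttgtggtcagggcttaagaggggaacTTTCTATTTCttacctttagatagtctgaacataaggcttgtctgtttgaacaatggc
Cebpa member, chr7:35099597-35099766, AP-1 letters in capitals: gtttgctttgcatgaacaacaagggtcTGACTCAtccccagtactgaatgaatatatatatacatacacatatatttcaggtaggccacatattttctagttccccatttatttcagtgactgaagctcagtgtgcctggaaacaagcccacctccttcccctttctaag
Mycn member, chr12:13007777-13007926, ETS and then PU.1 letters in capitals: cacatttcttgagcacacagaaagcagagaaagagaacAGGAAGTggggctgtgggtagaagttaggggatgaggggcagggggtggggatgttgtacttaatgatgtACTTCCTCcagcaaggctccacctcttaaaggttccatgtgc
Gata3 member, chr2:9968297-9968486, PU.1 letters in capitals: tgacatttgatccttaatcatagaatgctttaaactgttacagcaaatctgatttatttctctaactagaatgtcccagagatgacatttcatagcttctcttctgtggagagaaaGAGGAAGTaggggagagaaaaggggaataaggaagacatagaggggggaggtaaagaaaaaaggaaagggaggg
Slamf1 member, chr1:171785997-171786146, PU.1 and then ETS letters in capitals: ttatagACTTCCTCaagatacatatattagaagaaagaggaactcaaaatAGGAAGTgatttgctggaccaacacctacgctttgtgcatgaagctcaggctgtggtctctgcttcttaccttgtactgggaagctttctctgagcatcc

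The members ranked low among the peaks of their own libraries. Scores have no stated meaning, so each was turned into a percentile within its library, where 0 is the weakest peak and 100 the strongest. The members' median percentile was 31.5 in DN1 replicate 1 (quartiles 18.3 and 46.8) and 25 in DN1 replicate 2 (14.3 and 38.3), and the mean of both had a median of 28.3, with a highest value of 86.8. DHSs open in both DN1 libraries and at least 1 other had medians of 68.8 and 56.9 in the same libraries. In bulk cells, a site open in few of the cells and a site weakly open in most of them cannot be told apart. Members whose mean percentile was under 25, called low-scoring here, numbered 1290 (42.8%, 95% Wilson interval 41.0% to 44.6%, which like all intervals given here covers counting error only). Among all DHSs with both DN1 libraries the share was 12.6%, and among those with at least 1 other library 11%. Members in the upper range were few, with 419 (13.9%) at a mean percentile of 50 or more and 14 (0.464%) at 75 or more.

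**Figure D1:**
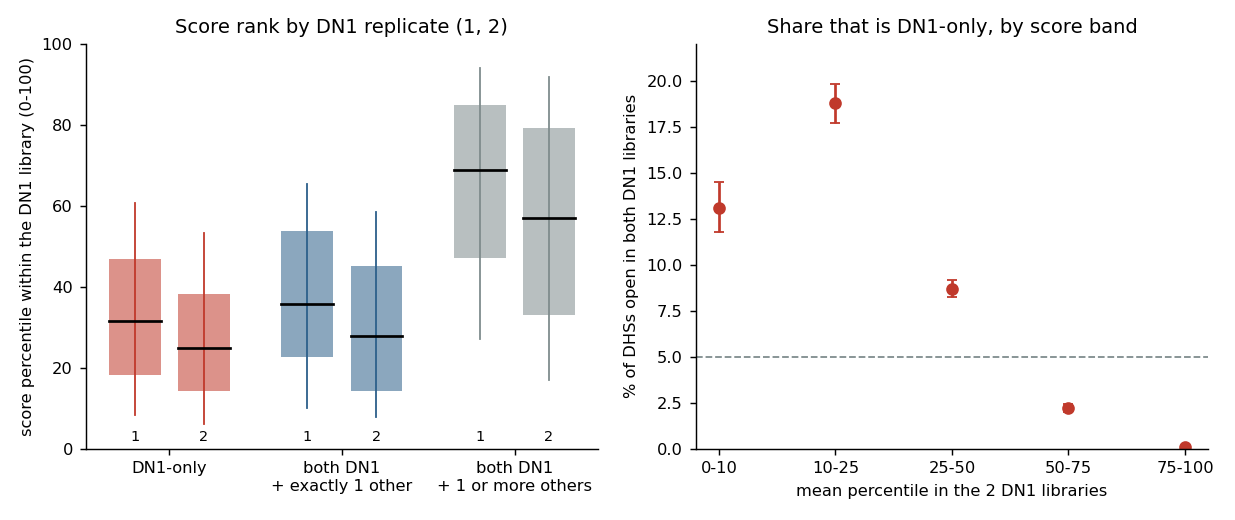
Left, score percentile within DN1 replicates 1 and 2 (vertical axis, 0 to 100) for 3014 DN1-only DHSs, 2887 DHSs of both DN1 libraries with exactly 1 other and 57169 with 1 or more others (black line, median; box, quartiles; thin line, 10th to 90th percentile). Right, percent of DHSs open in both DN1 libraries that were DN1-only, by mean percentile (bars, 95% Wilson interval; dashed line, 5.01% over all bands), which falls from 18.8% in the band from 10 to 25 to 0.0726% above 75.

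The weaker a DN1 site was, the more often it was DN1-only, except at the very bottom. Of DHSs with a peak in both DN1 libraries, 13.1% were DN1-only at a mean percentile under 10, 18.8% from 10 to 25, 8.70% from 25 to 50, 2.21% from 50 to 75 and 0.0726% above 75. The 2 DN1 libraries also placed these peaks less alike than others. Peaks of a member began at the same base in both replicates in 27.7% of cases and within 20 bp in 69.1%, against 37.2% and 81.0% of DHSs with at least 1 other library. Those DHSs also ranked higher (median mean percentile 62.3 against 28.3), and the comparison was not split by score.

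Just outside the rule lay 2887 DHSs with both DN1 libraries and exactly 1 other library, and their mean DN1 percentile had a median of 32.0, near that of the members. The other library was DN2b replicate 2, the longest list, for 1223 of them. It was DN2a replicate 1 for 490, LSK replicate 3 for 357 and LSK replicate 2 for 219, and the remaining 6 libraries held between 41 and 159 each. Just inside the rule, 21 members had a peak of another library within 20 bp without touching it, 180 (5.97%) within 150 bp and 421 (14%) within 500 bp. The median gap from a member to the nearest peak of another library was 4050 bp. Sharing between exactly 2 lists was as common with the longest list of another stage, since DN1 replicate 1 shared 3368 DHSs with DN2b replicate 2 alone, more than the 3014 it shared with DN1 replicate 2 alone. It shared 642 with LSK replicate 3 alone and 80 to 545 with each of the other 8 libraries.

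The number of members rested on the whole depth of the lists. When the upper 50% of each list by score was used, 1974 DHSs met the rule, and 271 of them overlapped a member. With every list cut to its 32952 best peaks there were 819, of which 109 overlapped a member. When the DN1 lists alone were cut to that length and the other 10 kept whole, an alternative chosen after seeing the data, 109 sites (3.62% of members) met the rule. Most DHSs that appeared only in DN1 among strong peaks thus had a weaker peak in some other library. Without DN1 replicate 1 the number was 6022 and without DN1 replicate 2 it was 14255, since 1 library then stood for the stage.

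Members lay away from gene starts. Promoters, taken as DHSs whose midpoint was within 1 kb of the start of a protein-coding gene, made up 3.92% of members (118, interval 3.28% to 4.67%) and 16.5% of all consensus DHSs. With DN1 replicate 1 or DN1 replicate 2 left out, the share among the sites that then met the rule was 8.77% and 7.96%. Among the 57169 DHSs of both DN1 libraries with at least 1 other the promoter share was 23.8%. A low promoter share was also found for sites open in IgG libraries only (3.14% of 3213), in LSK libraries only (7.52% of 1104) and in all LSK and DN1 libraries only (3.79% of 686). The sites open in DN2b libraries only, at 13.5% of 3169, and those of DN2a only, at 28.2% of 110, had more promoters. Introns of coding genes held 47.8% of members and 44.4% of all DHSs, and intergenic DNA 39.9% and 38.0%. Exons of any kind, UTRs included, held 6.57% and 12.4%.

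**Figure D2:**
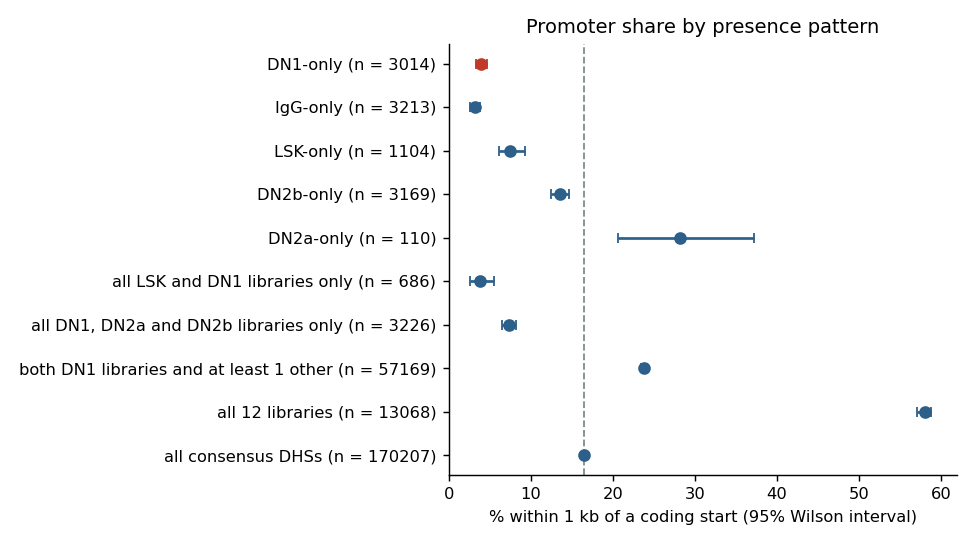
Percent of DHSs within 1 kb of the start of a protein-coding gene (horizontal axis) for sets of DHSs defined by the libraries that share them (vertical axis, with the number in each; points, share; bars, 95% Wilson interval; dashed line, 16.5% of all consensus DHSs). DN1-only DHSs, at 3.92%, lie near IgG-only DHSs, at 3.14%, and below DN2b-only DHSs, at 13.5%.

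The gap in promoter share was also seen within bands of score. Within bands of mean DN1 percentile, 4.57% of members and 10.1% of other DN1 DHSs were promoters from 10 to 25, 3.98% and 12.1% from 25 to 50, and 2.47% and 17.1% from 50 to 75. Only under 10, at 3.61% (interval 2.03% to 6.34%) and 4.48% (3.66% to 5.47%), did the intervals overlap among the 4 lower bands. In the top band 0 of 14 members (interval up to 21.5%) and 43.3% of the others were promoters. The median distance of members from the nearest coding start was 38.0 kb, against 21.3 kb for all DHSs, and 24.1% of members and 16.9% of all DHSs lay over 100 kb away. LSK-only sites lay farther out (median 49.9 kb, 32.7% over 100 kb), as did those of all LSK and DN1 libraries only (48.0 kb). Medians were lower in sites of all DN1, DN2a and DN2b libraries only (31.5 kb), and in IgG-only (27.1 kb), DN2b-only (19.9 kb) and DN2a-only sites (13.6 kb). The DNA of members was poor in CpG, with a median observed/expected ratio of 0.139 against 0.242, at a GC content of 48.0% against 49.3%. The ratio was closer to that of members in sites open in all DN1, DN2a and DN2b libraries only (0.175), in IgG libraries only (0.192) and in DN2b libraries only (0.194), and higher than over all DHSs in LSK libraries only (0.298). It was 0.214 in sites of all LSK and DN1 libraries only, where promoters were also few. All DHSs include more promoters than members do, and the ratio was not computed away from promoters. A median of 13.7% of their bases was repeat-masked, against 0.667%, and 10.7% of members, against 6.72% of all DHSs, had most of their bases in masked repeats. The part of mapping in repeats was not tested.

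Members had fewer close neighbours than DHSs in general. The nearest other DHS of any kind lay within 1 kb for 26.5% of members and 45.8% of all DHSs, and the median gap was 3.19 kb against 1.31 kb. Sites open in LSK libraries only (24.2% within 1 kb, median gap 3.83 kb) and those open in all LSK and DN1 libraries only (median gap 3.13 kb) were placed much as members were. Members lay near another member more often than DHSs in general did, since another member was within 50 kb for 776 of them (25.7%, at most 5 around any one) and a member was within 50 kb for 17.5% of all DHSs and 19.4% of those open in both DN1 libraries. Shares by chromosome ran from 1.29% DN1-only on chromosome 11 to 2.26% on chromosome 13.

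Members often carried the PU.1 motif. In the central 150 bp of each DHS, 13 motifs were searched as fixed letters on both strands: PU.1 as GAGGAAGT, ETS as AGGAAGT, AP-1 as TGANTCA, RUNX as TGTGGTT, the letters AGATAA of GATA factors, the E-box of E proteins as CAGCTG, TCF1/LEF1 as CTTTGAA, RBPJ (the DNA-binding partner of Notch) as TGTGGGAA, C/EBP as TTGCNNCAA and NF-kB as GGAANTTCC, with MEF2, IRF and CTCF by longer consensus runs. The ETS letters lie within the PU.1 letters. PU.1 letters were found in 549 members (18.2%, interval 16.9% to 19.6%) and in 5.70% of all DHSs, and away from promoters in 18.6% and 6.36%. With DN1 replicate 2 left out, the share among the sites that then met the rule was 11.4%, and with DN1 replicate 1 left out 14%. ETS letters without the PU.1 flank were found in 10% and 8.29% of members and of all DHSs. A match is a run of letters, and binding was not measured.

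Among sites open at 1 stage only, PU.1 letters were found in 8.18% (DN2a), 6.61% (LSK), 5.60% (IgG) and 1.99% (DN2b). They were as frequent as in members, at 18.8%, in the 686 DHSs open in all LSK and DN1 libraries and no other, and they were found in 4.90% of the 3226 open in all DN1, DN2a and DN2b libraries only. Among these sets the share was thus high in members and in sites shared with LSK only, and low in those shared with DN2 only. Pairs of libraries were compared in the same way. Of the promoter-distal DHSs found in DN1 replicate 1 and DN2b replicate 2 alone, 4.36% (3.67% to 5.18%, n = 2843) had PU.1 letters, against 18.6% (17.2% to 20.1%, n = 2896) for DN1 replicates 1 and 2. With a single DN2a library the shares were 6.18% and 8.76%, with DN2b replicate 1 6.29%, with a single LSK library 10.6% to 14.4%, and with a single IgG library 13.6% to 18.5%, the last from 72 to 154 DHSs each. Sites found in DN1 replicate 1 alone or DN1 replicate 2 alone had 10.3% and 11.7%.

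**Figure D3:**
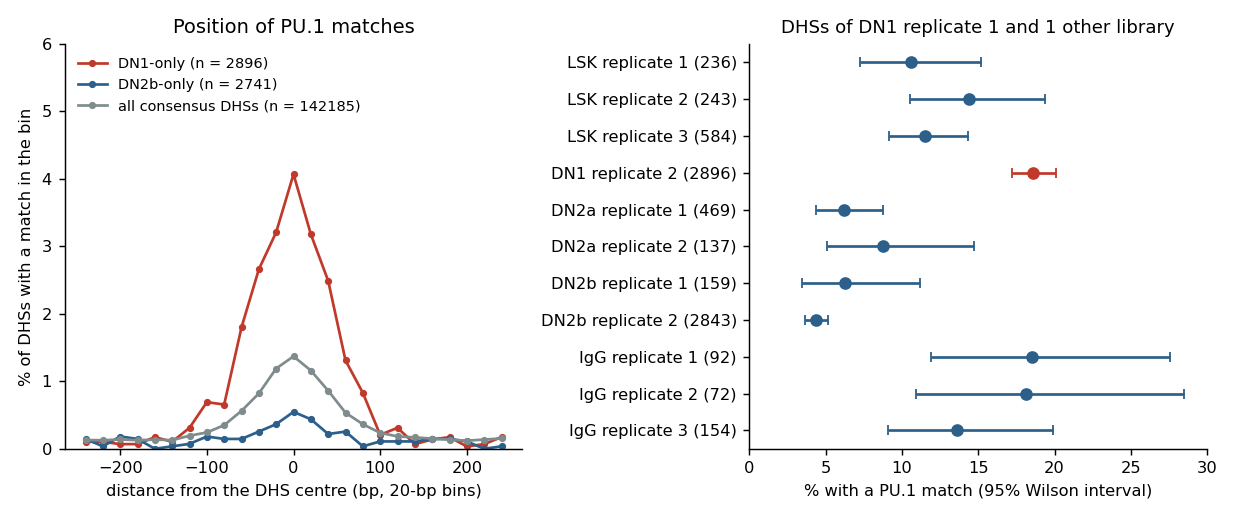
Left, percent of promoter-distal DHSs with a PU.1 match (vertical axis) in 20-bp bins by distance from the DHS centre (horizontal axis), peaking at 4.07% for DN1-only, 1.37% for all DHSs and 0.547% for DN2b-only. Right, percent with a PU.1 match in the central 150 bp (horizontal axis) of promoter-distal DHSs found in DN1 replicate 1 and exactly 1 other library (vertical axis, number of DHSs in parentheses; bars, 95% Wilson interval), with 18.6% for DN1 replicate 2 in red and 4.36% for DN2b replicate 2.

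PU.1 matches gathered at the centre of the sites. In the 20 bp at the centre, 4.07% of promoter-distal members and 1.37% of all promoter-distal DHSs had a match. At 240 bp to either side 0.104% and 0.173% of members did, close to the 0.129% and 0.153% of all DHSs there. In members the share did not rise steadily with score, while in other DN1 DHSs it rose from band to band. From the lowest to the highest band of mean DN1 percentile it was 15.3%, 17.4%, 21%, 16.5% and 14.3% in members (2 of 14 in the last), and 2.32%, 6.75%, 7.95%, 8.75% and 11.8% in other DN1 DHSs. It fell with the number of further libraries that shared a DN1 site, from 18.6% with 0 to 13.8% with 1, 12.3% with 2, 11.3% with 3 and 7.83% with 4, and lay between 6.63% and 8.76% from 5 to 10. Among promoter-distal DHSs of both DN1 libraries, CTCF letters were rarest in members, at 2.24% with 0 further libraries and 6.45% with 1. They were most frequent with 8, at 20%, and then stood at 16.4% with 9 and 13.2% with 10. Away from promoters they were also rare in IgG-only (0.450%), DN2b-only (1.82%) and LSK-only sites (2.45%), while DN2a-only sites had 8.86%. CTCF binds at insulators and loop anchors in most cell types.

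At the level of whole libraries, with the members left out, the PU.1 share of promoter-distal DHSs in DN1 lay within the range of the other libraries. Members lie in the DN1 libraries alone and had a share of 18.6%, so leaving them out lowered the DN1 shares. The other libraries kept the sites that they alone held. DN1 replicates 1 and 2 held the letters in 8.08% and 8.79% (mean 8.43% ± 0.504, SD, n = 2), and the others ran from 4.43% in DN2b replicate 2 to 9.13% in 2 of the IgG libraries (7.10% ± 1.66, SD, n = 10). The difference gave p = 0.288 in a two-sided exact permutation test over 66 divisions, and adjusted p = 0.812 by Benjamini-Hochberg over 13 motifs. MEF2 letters were more frequent in both DN1 libraries than in any other, at 2.5% ± 0.0315 (SD, n = 2) against 2.36% ± 0.0362 (SD, n = 10), with the smallest exact p that the divisions allow, 0.0152 (adjusted p = 0.197). A single motif with fully separated groups cannot pass the adjustment in this design, so the adjusted values do not show that DN1 and the other libraries are alike. This test was added after seeing the data, and it treats libraries as exchangeable.

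Among the other motifs, RUNX letters, those of factors needed by stem cells and T cells alike, were found in 15.5% of members, 10.5% of all DHSs and 31.2% of the 3226 DHSs open in every Delta1 library (DN1, DN2a and DN2b) but in no LSK or IgG library. TCF1/LEF1 letters, of T lineage factors, were found in 3.25% of members and 3.61% of all DHSs, with 6.60% in DN2b-only sites. E-box letters were found in 10.7%, 11.5% and 18.3% of the same sets, and GATA letters in 7.10% of members and 8.25% of all DHSs. AP-1 letters were less frequent in members, at 4.91%, than in all DHSs, at 7.66%, and in IgG-only sites, at 18.2%. RBPJ letters were found in 1.86% of members (interval 1.43% to 2.40%) and 1.24% of all DHSs. DN2b-only sites had 1.80%, IgG-only sites 0.996%, DN2a-only sites 0.909% and LSK-only sites 0.634%. CTCF letters were found in 2.32% of members and 7.73% of all DHSs. They were also rare in LSK-only (2.45%), DN2b-only (1.70%) and IgG-only sites (0.436%), while DN2a-only sites had 7.27%. NF-kB letters were found in 0.962% of members (0.671% to 1.38%) and 0.511% of all DHSs. The shares for C/EBP (1.26% and 1.30%), MEF2 (2.62% and 2.26%) and IRF letters (2.79% and 2.99%) lay within counting error of each other. At least 1 of the 13 motifs was present in 61.9% of members and 53.5% of all DHSs. Away from promoters it was 62.8% of members, 58.2% of all DHSs and 63.2% of other DHSs open in both DN1 libraries. RUNX letters away from promoters were found in 15.8%, 11.9% and 14.3% of the same sets.

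The strongest member lay 6.38 kb upstream of Stx7, which encodes a syntaxin of endosomes, at percentiles 88.3 and 85.3 in DN1 replicates 1 and 2 (scores 84 and 64). The nearest peak of another library was 6170 bp away. The next was in an intron of Tmem184b, 24.0 kb downstream of the start of Maff, a small MAF factor, at 79.8 and 83.6. The next was in an intron of the non-coding gene Gm26735, 7.89 kb downstream of the start of Sox4, a factor of lymphoid progenitors, at 82.0 and 81.3. Another lay between genes, 48.1 kb downstream of the start of Prokr2, at 77.8 and 80.6, with RUNX, RBPJ and E-box letters within 1 site and no peak of another library for 20610 bp. All 4 were well ranked in both DN1 replicates.

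Of the next 6, the member in an intron of Elovl5, an enzyme that lengthens fatty acids, stood at 75.8 and 77.8 and had PU.1 and IRF letters. A member in an intron of Fbxo42 stood at 84.1 and 71.7. Members nearest to Lrrc71 (in an intron of Arhgef11), Wnt2, Tbl1xr1 and Bcl7a had mean percentiles from 75.9 to 77.1. The Tbl1xr1 member was remote, 494 kb upstream of the start. None of the top 10 was at a promoter.

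The 5 highest promoter members were those of Bri3bp, Oma1, Olfr417, B9d1 and Zswim3, and 3 of them had a DHS open in all 12 libraries as their nearest neighbour. The Oma1 member lay 260 bp into the gene and 130 bp from a peak of another library, beside such a neighbour. The B9d1 member, 272 bp upstream of the start, was 30 bp from a peak of another library, and the Zswim3 member, in a coding exon, was 190 bp from one. The Bri3bp member, at 78.5 and 70.6, stood 816 bp upstream with the PU.1 letters, 570 bp from another library's peak. It was 58.0% repeat-masked. Only the member in the UTR of Olfr417, an olfactory receptor gene, was isolated, with 9230 bp to the next peak of another library, and it stood at 69.7 and 70.6. When peaks within 150 bp were merged, the promoter share of DN1-only sites was 2.90%.

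By nearest start, members were assigned to 2378 of 21755 coding genes (10.9%), of which 1923 had 1 member. Robo1 and Pmfbp1 had the most, with 8 each. Those of Robo1, a guidance receptor gene, were 8 of its 32 DHSs, all 297 to 601 kb into the gene. Their mean percentiles ran from 10.8 to 71.9, and 4 of them stood at 50 or more. These 4 lay together, 355 to 363 kb into the gene. CpG ratios were 0.584 in the one in a UTR and 0.693, 0.136 and 0.207 in the others, against a median of 0.139 over all members. The promoter window was set at the gene's start alone, so it does not cover starts inside a gene. Those assigned to Pmfbp1 were 474 to 764 kb from its start, and 7 lay in introns of Zfhx3, so a nearest start can belong to another gene than the one that holds the site. Nrp1 had 7 members of 89 DHSs, and Lpp 6 of 73. Cd180, which encodes a toll-like receptor homologue of B cells and myeloid cells, had 6 of 64, of which 2 had PU.1 letters. These 2 lay 3.91 and 14.5 kb upstream of its start. Those 169 to 173 kb downstream lay in introns of Mast4, and another was 381 kb upstream. A tie of 11 genes at 5 members followed, among them Meis1, Mycn, Mef2c and Nr4a3.

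Known lineage genes were described by 10 lists of 20 genes each, with the share of each list's DHSs that was DN1-only set beside 1.77% of all. The stem and progenitor list had the highest share, at 18 of 437 DHSs (4.12%, 2.62% to 6.42%). Its members were nearest to Meis1 (5), Mycn (5), Kit (2), Hhex (2), Lmo2, Mecom, Bcl11a and Slamf1. Without Meis1 and Mycn the share was 8 of 335 (2.39%). None of the 18 was at a promoter, 8 were low-scoring and 6 had PU.1 letters, while over all lists 10 of 62 members (16.1%) had them, near the share of all members. The macrophage and dendritic cell list followed at 10 of 268 (3.73%, 2.04% to 6.73%), then the mast cell and basophil list at 4 of 124 (3.23%, 1.26% to 8.0%) and the NK and innate lymphoid list at 11 of 422 (2.61%, 1.46% to 4.61%). The T lineage list had 3 of 307 (0.977%, 0.333% to 2.83%) and the Notch pathway list 4 of 486 (0.823%, 0.321% to 2.10%). The B lineage list had 4 of 234 (1.71%), all low-scoring, the neutrophil list 3 of 177 (1.69%), the stroma, endothelium and epithelium list 3 of 240 (1.25%) and the erythroid and megakaryocyte list 2 of 217 (0.922%). In 8 of the 10 lists the interval included the share of all DHSs, and the lists were not tested.

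**Figure D4:**
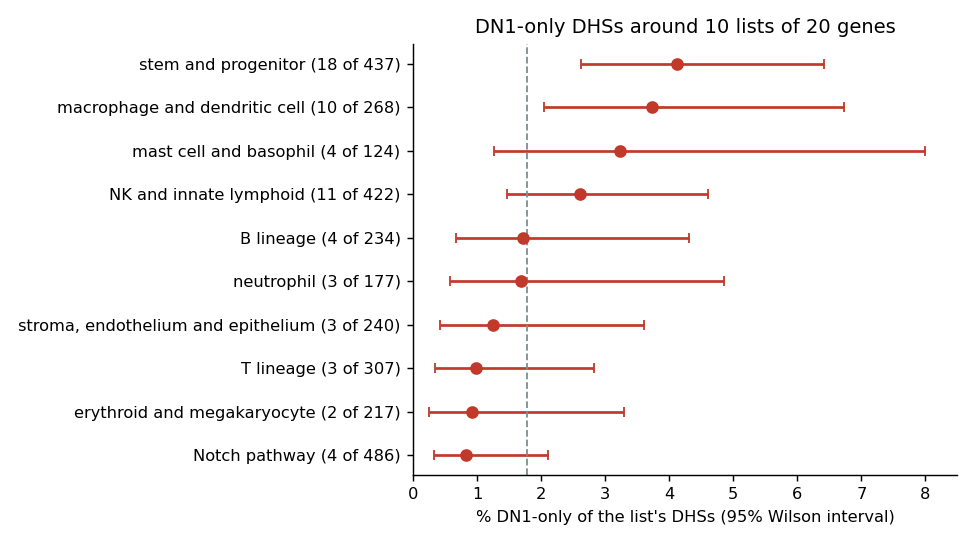
Percent of DHSs nearest to the genes of each list that were DN1-only (horizontal axis) for 10 lists of 20 genes (vertical axis, members of DHSs in parentheses; bars, 95% Wilson interval; dashed line, 1.77% of all consensus DHSs). The stem and progenitor list, at 4.12%, and the macrophage and dendritic cell list, at 3.73%, have intervals above the line, and the Notch pathway list has the lowest share, at 0.823%.

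Meis1 encodes a homeodomain partner of HOX proteins that maintains stem cells. Its 5 members were 135 to 452 kb from the start, and 4 of them were low-scoring. The strongest, in the gene's UTR, stood at 63.2 and 56.9 and lay 350 bp from a peak of another library. Mycn, a MYC paralogue of progenitors, had 5 of 47 DHSs, 65.9 to 119 kb from the start, at mean percentiles from 17.3 to 38.0. Of these, 3 had PU.1 letters, and 1 of them, 65.9 kb upstream, stood at 37.8 and 38.3 and lay 41510 bp from any peak of another library. That site was 74.0% repeat-masked in its central 150 bp. In all, 29 and 25 of the DHSs nearest to Mycn were open in DN1 replicates 1 and 2, 8 to 14 in LSK libraries, 7 to 21 in DN2 libraries and 0 or 1 in IgG libraries. The libraries also differed over all 170207 DHSs, of which the DN1 libraries held 93783 and 67491, LSK libraries 52623 to 60797, DN2 libraries 56068 to 108126 and IgG libraries 32092 to 36548, so these counts at Mycn are not set apart from list length.

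**Figure D5:**
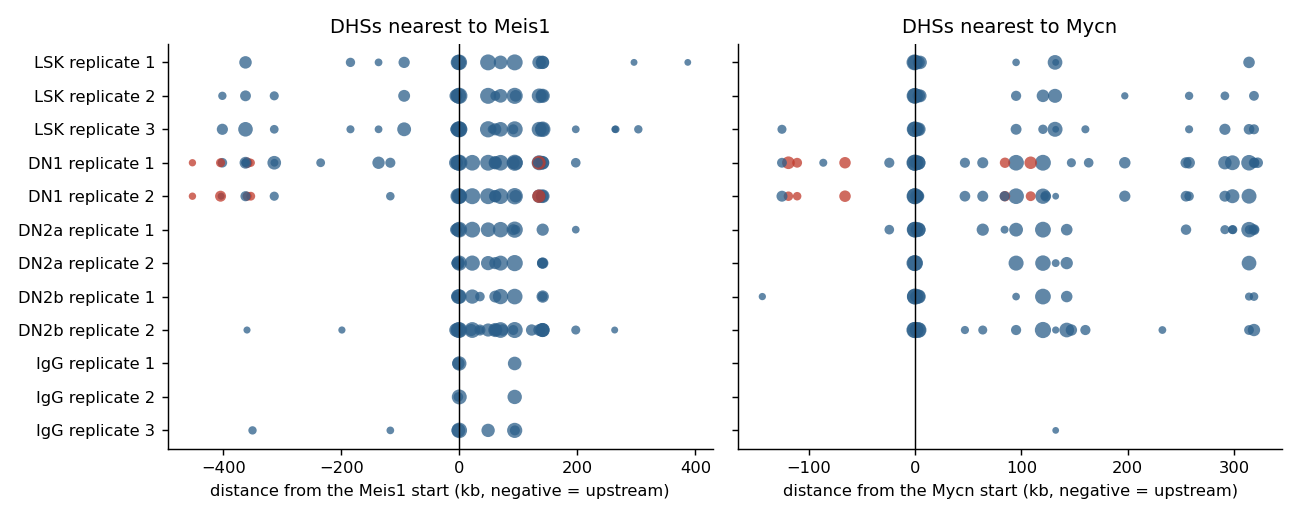
DHSs nearest to Meis1 (left) and Mycn (right) by distance of their midpoint from the gene's start (horizontal axis, kb, negative upstream) in each of the 12 libraries (vertical axis). Each point is a DHS with a peak in that library, larger with a higher score percentile, and red points are the 5 DN1-only DHSs of each gene, which lie 135 to 452 kb from Meis1 and 65.9 to 119 kb from Mycn.

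Other members of this list included that of Lmo2, an adaptor of stem cell transcription complexes, which led it at 71.6 and 56.9, 70.2 kb upstream of the start. The 2 nearest to Kit lay 158 and 187 kb upstream, and the nearer one stood at 48.9 and 69.5. The Slamf1 member, in an intron, stood at 24.9 and 30.5 and had PU.1 letters, as did the nearer of the Hhex members, at 52.2 and 25.

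Spi1, the gene of PU.1 itself, had 1 member, in an intron 1.17 kb downstream of the start, at 48.9 and 55.1. It lay 310 bp from a peak of another library and beside a DHS open in all 12, and it held none of the 13 motifs. Batf3, a factor of dendritic cells, had 2 members, at 52.2 and 55.1 and at 41.7 and 51.5. Itgax, the dendritic cell integrin CD11c, had 2, with mean percentiles of 42.8 and 44.4. The former lay in a UTR of Itgam, 11.9 kb upstream of the Itgax start. None of the 10 members of the macrophage and dendritic cell list had PU.1 letters in the central 150 bp.

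Cebpa, a master factor of granulocytes and macrophages, had 2 members, 19.6 kb upstream and 20.7 kb downstream of the start. The upstream one, at 70.7 and 63.2, held AP-1 letters and was the highest of all lists, 510 bp from a peak of another library. In the mast cell and basophil list Hdc, the enzyme that makes histamine, had 2 members, at 62 and 33 and at 29.4 and 42.9. The Il1rl1 member, 752 bp inside the gene of the IL-33 receptor and within the promoter window, stood at 41.7 and 16.9 with PU.1 letters. The leading NK and innate lymphoid member was nearest to Id2 but 509 kb upstream of it, at 55.2 and 67.2, and Tox, a factor of innate lymphoid and T cells, had 4 of 66.

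Around T lineage genes, 3 genes had a single member each. Cd5 had 1, 6.15 kb upstream of the start, at 52.2 and 22.4. Cd3e had 1, 5.46 kb upstream, at 41.7 and 27.8. Gata3 had 1, in an intron of Taf3 78.4 kb upstream, at 20.5 and 11.9, with PU.1 letters. In the Notch pathway list, Maml3, a co-activator of the Notch complex, had 1 at 66.6 and 51.5, and Hey1, a Notch target, had 1 at 45.4 and 33.0, 626 bp upstream of its start and 50 bp from a peak of another library. Notch2 had 1 in an intron, at 45.4 and 6.20. No member was nearest to Notch1 or Hes1.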

How the data were processed

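Per the labels and methods, the authors built single-stranded DNase-seq libraries, aligned reads to mm10 (BWA 0.7.12, SAMtools 1.2, as the submitters' processing notes name them) and called peaks with hotspot2. The deposited lists are 1 per library, and each gives peaks of 150 bp with a score from 1 to 150, whose meaning is not given in the sources used here. Scores were ranked within each library (midranks, 0 to 100), and a DHS took its best peak per library. Merging was checked against bedtools 2.31.1 and on simulated lists with planted DN1-only sites. Other work used python 3.11.15, numpy 2.4.6, pandas 2.3.3 and scipy 1.17.1.

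Groups came from the labels, and replicate numbers follow deposition order. Start sites and gene parts were from GENCODE M21 (21755 coding genes on chromosomes 1 to 19 and X), and sequence and repeat masking from the RefSeq copy of GRCm38. Lists of 20 genes were counted by nearest coding start, and 1 erythroid gene had no record. Named members were the 10 highest, the 5 highest at promoters, the genes with most members and the highest of each gene list, and others were picked after their values were seen. The members and lists were chosen with earlier results of these data known. Sites are not replicates, so shares carry Wilson intervals and no test. Whether peaks missing from a list reflect depth was not tested, as read totals are not given in the sources used here. Alternatives were equal list lengths, the upper 50% of scores, other merging distances, other thresholds and windows, all chromosomes and each library left out.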

Additional observations from a re-analysis of the deposited data

How the results depend on the processing

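No paired analysis was possible because replicate numbers follow deposition order and the labels give none. The number of DN1-only DHSs, 3014, was 819 at equal list lengths, 1974 with the upper 50% of each list, and 109 with only the DN1 lists cut, a setting chosen after seeing the data. Leaving out single libraries gave 3056 to 14255, the highest without DN1 replicate 2, 6022 without DN1 replicate 1, and at most 4244 (without DN2b replicate 2) for the others. The low-scoring share, 42.8%, was 0% in each of the 3 settings that drop low peaks, by construction. It was 10.1% with a limit of 10, 86.1% with a limit of 50 and 57.4% by the lower replicate, and 40.6% to 63.6% with a library left out. The promoter share, 3.92%, was 2.90% with merging within 150 bp, 6.42% with only the DN1 lists cut, 2.12% with a window of 500 bp, 7.27% with 2.5 kb and 5.71% with every coding transcript start, and 3.83% to 8.77% with a library left out, 5.87% without DN2b replicate 2. The PU.1 share, 18.2%, was 15.5% at equal lengths and 14.7% with only the DN1 lists cut (16 of 109, interval 9.24% to 22.5%). With a library left out it was 11.4% to 18.4% (11.4% without DN1 replicate 2, 14% without DN1 replicate 1, 15% without DN2b replicate 2). All lay above the 5.70% of all DHSs as deposited, but the cut lists hold only higher-ranked peaks. Away from promoters, other DHSs of both DN1 libraries had 8.75% at mean percentiles from 50 to 75 and 11.8% above 75. The interval of the 109 sites includes the latter. The share over 100 kb from a coding start, 24.1%, was 20% in members at percentile 25 or more. Merging at 50 bp of overlap gave 3042 sites, and the use of all chromosomes 3014, and neither moved the low-scoring, promoter or PU.1 share beyond its interval. The cause of these shifts was not tested.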
